A study of Mus musculus with 8 samples.

Results

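The genes described here are 10 members of the Bcl2 family, which set whether a cell survives or dies by the mitochondrial route of apoptosis, in lymphoid progenitors that lack the transcription factor E2A or HEB. All probe sets annotated to these symbols alone were taken, with no use of their values. They numbered 29 of 45101 on the array and covered 9 genes of 18193. No probe set was annotated to Bax alone, so Bax is not analysed here. RNA came from bone marrow cells of C57BL/6 mice aged 10 to 13 weeks, sorted as common lymphoid progenitors by the surface proteins FLT3 and CD127, without lineage markers and without LY6D. The E2A knockout (E2A-KO, 4 arrays) lacks the products of Tcf3, the HEB knockout (HEB-KO, 2 arrays) those of Tcf12, and wild-type cells (WT, 2 arrays) carry both. Each array held cells pooled from several marrows, so the spread is between sorted pools and not between mice, and the labels do not say how the alleles were made.

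Proteins of this family act on the outer membrane of mitochondria. Guardians such as BCL2, BCL-XL (from Bcl2l1) and MCL1 hold the effectors BAX and BAK in check. Freed effectors open the membrane, cytochrome c escapes, and caspases are activated. BH3-only proteins such as BIM (from Bcl2l11), PUMA (from Bbc3), NOXA (from Pmaip1), BAD and BID carry stress signals and bind the guardians or the effectors. In lymphoid progenitors the cytokine interleukin 7 is known as a survival signal that acts through this family. E2A and HEB bind DNA at E-boxes, short sites of the form CANNTG.

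Promoters are shown because the proteins that are missing bind E-boxes. RefSeq promoter sequences (build GRCm38.p6) were taken for 8 of the 9 measured genes, with 14 start sites between them, and no window was taken for Pmaip1. In choosing the windows of the members 1 chromosome was left out, so a member's start site on it would not be counted. None was left out of the windows of all genes. The 250 bases upstream of each start were searched for CANNTG, which reads the same on both strands. It was present in 8 of 14 windows, and in at least 1 window of 4 of the 8 genes (Bcl2l1, Mcl1, Bbc3 and Bad), against 66.2% of 32851 windows of all genes. The 3 windows below belong to the guardians that results turn on and to a BH3-only gene whose window held the CAGGTG form, read as CACCTG on the other strand. That form was in 2 of the 14 windows of the family, 1 of Bbc3 and 1 of Bad, against 17.2% of the windows of all genes. Letters of an E-box are in capitals.
Bcl2 promoter, chr1:106714291-106714540, minus strand: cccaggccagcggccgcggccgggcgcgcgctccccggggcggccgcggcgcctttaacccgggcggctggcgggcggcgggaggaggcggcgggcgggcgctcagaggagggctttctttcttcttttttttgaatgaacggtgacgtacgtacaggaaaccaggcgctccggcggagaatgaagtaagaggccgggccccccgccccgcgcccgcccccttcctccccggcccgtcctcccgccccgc
Mcl1 promoter, chr3:95658471-95658720, plus strand: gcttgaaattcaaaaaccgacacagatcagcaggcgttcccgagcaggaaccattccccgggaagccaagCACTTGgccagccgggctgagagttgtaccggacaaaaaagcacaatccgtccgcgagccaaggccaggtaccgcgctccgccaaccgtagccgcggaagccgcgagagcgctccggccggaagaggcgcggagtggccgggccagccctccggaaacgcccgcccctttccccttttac
Bbc3 promoter, chr7:16310011-16310260, plus strand: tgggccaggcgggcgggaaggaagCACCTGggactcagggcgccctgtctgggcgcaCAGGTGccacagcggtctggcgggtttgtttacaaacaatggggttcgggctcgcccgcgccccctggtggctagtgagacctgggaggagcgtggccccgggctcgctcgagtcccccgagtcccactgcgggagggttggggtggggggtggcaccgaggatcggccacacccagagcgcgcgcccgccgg
The Bcl2 window held 0 E-boxes, the Mcl1 window held 1, and the Bbc3 window held 2. A match is a description of these letters and says nothing on binding.

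Expression was read as RMA intensity, given here as log2. Each gene was represented by its brightest probe set, and was tested where that probe set lay above the median of its array on at least 2 arrays. Of the 9 genes measured, 8 were tested. Pmaip1 was below the median on all 8 arrays, and 21 of the 29 probe sets passed. The targeted genes were lowest where the labels say they are missing. Tcf3 read 3.71 to 4.28 on E2A knockout arrays, 8.57 and 8.44 on HEB knockout arrays and 7.76 and 7.98 on WT arrays. Tcf12 read 8.52 to 8.64 on E2A knockout arrays, 7.10 and 6.49 on HEB knockout arrays and 8.85 and 8.76 on WT arrays. Progenitor genes differed in level. Flt3 read 10.12 to 10.53 on E2A knockout, 11.05 and 10.50 on HEB knockout and 10.47 and 10.66 on WT arrays. Cd34 read 9.45 to 10.23 on E2A knockout and 10.29 and 9.96 on WT arrays. On E2A knockout arrays Kit read 3.98 to 5.38, Rag1 3.41 to 4.46 and Ccr9 2.74 to 4.06. On WT arrays these read 6.61 and 6.66, 5.98 and 9.57, and 8.63 and 9.19. The mean over 11 tested progenitor markers ran from 7.87 to 8.45 on E2A knockout arrays, 9.99 and 9.46 on HEB knockout arrays and 9.75 and 10.21 on WT arrays. Ly6d, the marker sorted against, read 6.75 to 7.83 on E2A_KO replicates 1 and 4, HEB_KO replicate 1 and WT replicate 2, and 3.53 to 4.48 on the others. Over 9 tested B-lineage markers the mean was 6.01 on HEB_KO replicate 1 and 6.50 on WT replicate 2, against 4.64 to 4.96 on the others. Hybridization controls averaged 11.52 to 12.62 on E2A knockout arrays, 10.32 and 11.60 on HEB knockout arrays and 11.40 and 10.29 on WT arrays. Granulocyte and monocyte markers, 12 in number, averaged 5.003 to 6.86 on E2A knockout, 6.79 and 8.01 on HEB knockout and 5.39 and 6.21 on WT arrays. Over 6 T and NK cell markers the mean was 5.50 to 6.00 on all 8 arrays. Dendritic cell markers, 8 in number, averaged 6.05 to 7.29 on E2A knockout, 7.60 and 7.20 on HEB knockout and 7.43 and 7.78 on WT arrays, and 7 erythroid, megakaryocyte and mast cell markers 4.69 to 5.91, 4.55 and 4.92, and 4.53 and 4.69 on the same groups. The part of these cells in the members' values was not tested. A lower signal in a sorted pool can come from fewer cells of a type or from less RNA per cell, and these cannot be told apart.

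No tested member of the family passed the test in any comparison (limma, Benjamini-Hochberg adjusted p under 0.05 over 11957 genes). In E2A knockout against WT cells 0 of 8 were called, with 1 at an unadjusted p under 0.05, against 0.443% of all genes called and 13.4% at that unadjusted p. Between HEB knockout and WT cells it was 0 of 8 called and 0 at an unadjusted p under 0.05, against 0% and 2.61% of all genes. Between the knockouts it was 0 of 8 called and 1 at an unadjusted p under 0.05, against 0.117% and 16.5% of all genes. The members' shares lay close to those of all genes. In HEB knockout against WT cells the targeted gene Tcf12 was itself not called (-2.01, SE 0.26, limma adjusted p = 0.328). A missing call in that comparison thus says little on the members. Non-overlapping arrays were counted as well. With E2A knockout against WT, 1 of 8 members was apart and lower (Mcl1, against 15.4% of all genes) and 0 were apart and higher (9.98%). With HEB knockout against WT, 1 of 8 was apart and lower (Bcl2, 11.4%) and 2 were apart and higher (Bak1 and Bcl2l11, 23.4%). With E2A knockout against HEB knockout, 0 of 8 were apart and lower (21.6%) and 1 was apart and higher (Bcl2, 7.82%). The median log2 difference of the 8 members was 0.13 in E2A knockout against WT (-0.05 over all genes), 0.13 in HEB knockout against WT (0.09 over all genes) and -0.13 in E2A knockout against HEB knockout (-0.16 over all genes). Fitting each of 20849 probe sets on its own also called 0 of the 21 of the members in each comparison, with 4, 1 and 3 at an unadjusted p under 0.05 in that order. Of all probe sets 0.211%, 0% and 0.0048% were called, and 12.2%, 2.97% and 15% had that unadjusted p. Of the members' 21 probe sets, 6 were apart and lower and 1 apart and higher in E2A knockout against WT cells (14.5% and 9.28% of all probe sets). The counts were 3 and 5 in HEB knockout against WT (13.1% and 22.5%), and 2 and 2 in E2A knockout against HEB knockout cells (19.8% and 7.95%). A missed threshold does not show equal expression, so the intervals below say which sizes of difference the arrays leave possible.

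**Figure D1:**
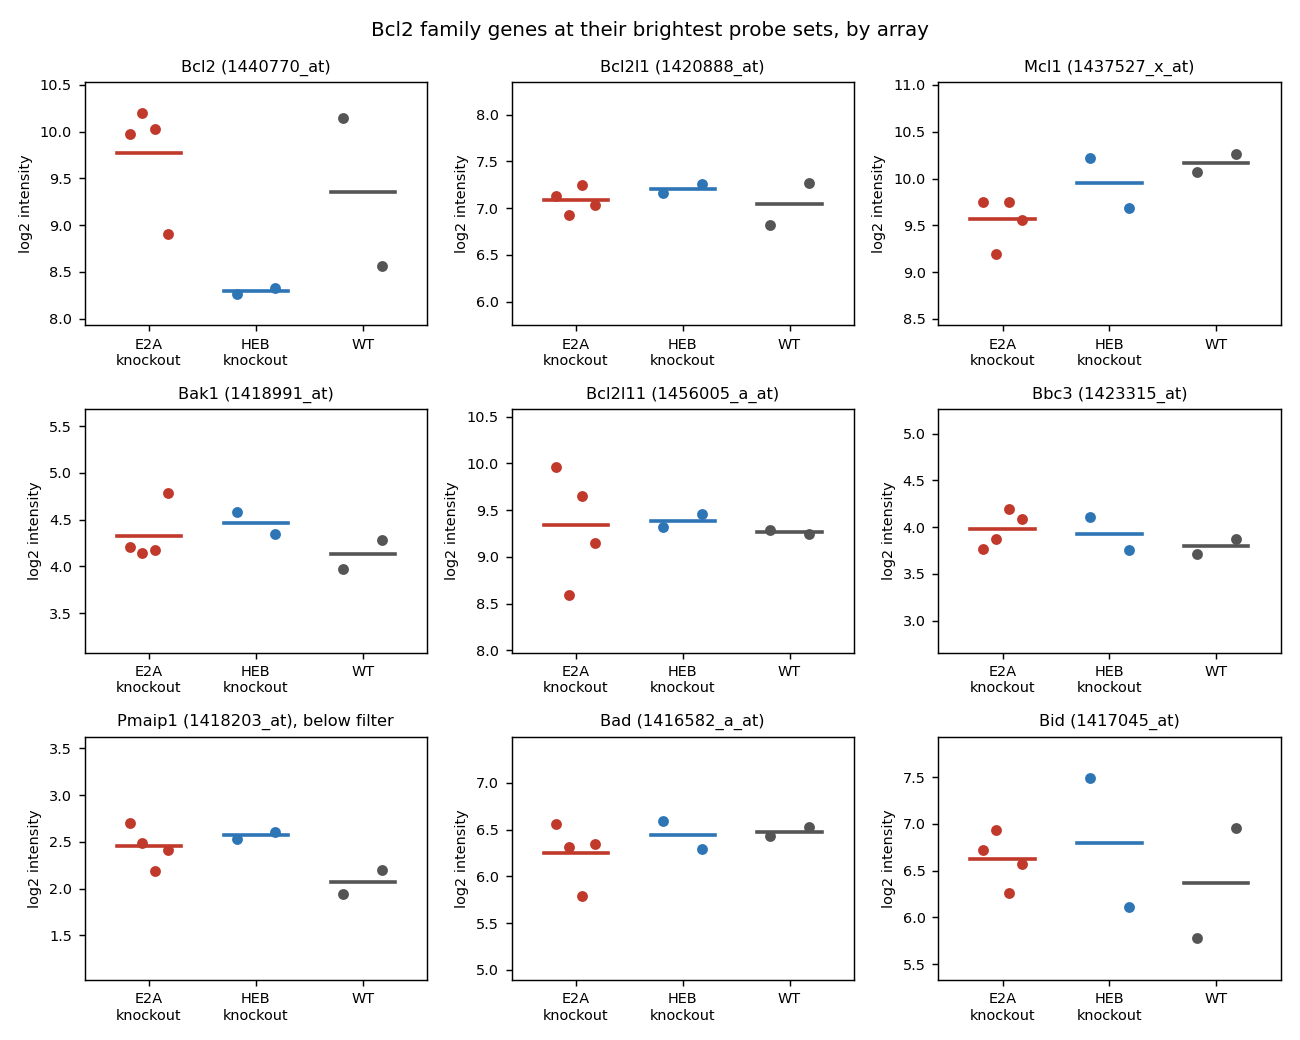
Log2 intensity of the 9 measured Bcl2 family genes at their brightest probe sets, with 1 point per array and a line at the mean of each genotype. Every panel spans the same log2 range. Mcl1 is the panel in which all E2A knockout arrays (9.20 to 9.75) lie below both WT arrays (10.07 and 10.26), and Bcl2 the one in which the WT arrays lie far apart (10.14 and 8.56).

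Among the guardians at their brightest probe sets, Mcl1 had the smallest p against WT in E2A knockout cells. MCL1 is a short-lived protein that lymphoid progenitors are known to need. Its brightest probe set read 9.75, 9.20, 9.75 and 9.55 on the E2A knockout arrays, 10.22 and 9.68 on the HEB knockout arrays and 10.07 and 10.26 on the WT arrays. All E2A knockout arrays were below both WT arrays, while the HEB knockout arrays lay on either side of WT replicate 1. The mean was 9.56 ± 0.26 in E2A knockout cells (SD, n = 4), 9.95 ± 0.38 in HEB knockout cells (n = 2) and 10.17 ± 0.14 in WT cells (n = 2). The log2 difference between E2A knockout and WT cells was -0.60 (1.52-fold, SE 0.25, 95% interval -1.18 to -0.03). It did not pass the test over all genes (limma unadjusted p = 0.0417, adjusted p = 0.3557). With the hybridization controls as a covariate it was -0.34, but these controls were higher on all E2A knockout arrays than on both WT arrays. The covariate and the genotype thus cannot be fully separated. For HEB knockout against WT it was -0.21 (95% interval -0.88 to 0.45), and in E2A knockout against HEB knockout cells -0.39 (95% interval -0.96 to 0.19), so the difference between the knockouts was not resolved.

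The other probe sets of Mcl1 had the same sign in E2A knockout cells. All 6 had a negative log2 difference from WT, -0.27 to -0.71, and in 5 of 6 the E2A knockout arrays lay below both WT arrays. These are 5 of the 6 probe sets of the family that were apart in this direction (14.5% of all probe sets were), and since they read the products of a single gene they are not separate observations. None of the 6 passed the test over all probe sets (limma adjusted p 0.3876 to 0.7906). Probe set 1416880_at read 6.95, 6.39, 7.04 and 6.96 on E2A knockout arrays, 8.17 and 7.26 on HEB knockout arrays and 7.56 and 7.53 on WT arrays. It had the largest difference from WT of the 6, -0.71 (SE 0.31), and there E2A knockout arrays were also below both HEB knockout arrays (-0.88, SE 0.31, limma adjusted p = 0.2601). Without HEB_KO replicate 1 that second difference was -0.43. The exception was 1416881_at, where E2A_KO replicate 4 (6.44) lay above both WT arrays (6.14 and 5.88). On the HEB knockout arrays the 6 probe sets did not run one way, with 4 negative and 2 positive differences from WT (-0.28 to 0.40). The 3 brightest carry the suffix that the manufacturer gives to probe sets whose probes may also match other transcripts. Over the 8 arrays they were correlated with each other at r = 0.93 to 0.98.

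Bcl2, the founding guardian of the family and one that interleukin 7 signalling is known to raise, was read by 5 probe sets that differed in the order of the genotypes. Its brightest, 1440770_at, read 9.98, 10.19, 10.02 and 8.90 on E2A knockout arrays, 8.26 and 8.33 on HEB knockout arrays and 10.14 and 8.56 on WT arrays. Both HEB knockout arrays were lowest, 3 of the E2A knockout arrays and WT replicate 1 were high, and E2A_KO replicate 4 and WT replicate 2 lay between. The mean was 9.77 ± 0.59 in E2A knockout cells (SD, n = 4), 8.30 ± 0.05 in HEB knockout cells (n = 2) and 9.35 ± 1.12 in WT cells (n = 2). The largest log2 difference of any member at its brightest probe set was found here, 1.48 between E2A knockout and HEB knockout cells (2.79-fold, SE 0.47, 95% interval 0.40 to 2.55). It did not pass over all genes (limma unadjusted p = 0.0126, adjusted p = 0.2043), and was 0.64 over the mean of the 5 probe sets. Against WT the log2 difference was 0.42 in E2A knockout cells (95% interval -0.66 to 1.497), and it was -0.37 without WT replicate 2 and 1.21 without WT replicate 1. For HEB knockout against WT it was -1.06 (95% interval -2.30 to 0.19), -1.85 without WT replicate 2 and -0.27 without WT replicate 1. The sign in E2A knockout cells and the size in HEB knockout cells thus rest on which WT array is used. Actin control signal at the 3' end exceeded that at the 5' end by a log2 of 3.86 to 4.78 on E2A knockout arrays. This excess was 3.37 and 3.58 on HEB knockout arrays and 4.45 and 3.84 on WT arrays. Both HEB knockout arrays were thus lowest in this control and WT replicate 1 above WT replicate 2, as at 1440770_at. For the GAPDH control the excess was 5.38 to 5.97 on E2A knockout arrays and 4.67 and 5.14 on HEB knockout arrays. On WT arrays it was 6.03 and 4.998, so WT replicate 2 lay between the HEB knockout arrays there. The part of either excess in the values of Bcl2 was not tested.

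A second probe set of Bcl2, 1443837_x_at, followed the brightest over the 8 arrays (r = 0.91). It read 9.16, 8.68, 8.998 and 8.45 on E2A knockout arrays, 7.42 and 7.95 on HEB knockout arrays and 9.62 and 7.79 on WT arrays. Its log2 difference between E2A knockout and HEB knockout cells was 1.14 (SE 0.46, limma adjusted p = 0.3006), and all E2A knockout arrays were above both HEB knockout arrays.

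Probe set 1437122_at of the same gene gave another order. It read 8.09, 7.88, 7.67 and 8.36 on E2A knockout arrays, 8.08 and 7.92 on HEB knockout arrays and 7.17 and 7.18 on WT arrays. All 6 knockout arrays were above both WT arrays, as was so for 3.91% of all probe sets tested. The log2 difference from WT was 0.82 in E2A knockout cells (SE 0.24, 95% interval 0.27 to 1.37, limma adjusted p = 0.2395) and 0.82 in HEB knockout cells (SE 0.28, 95% interval 0.18 to 1.46, limma adjusted p = 1). Both comparisons share the WT arrays, and neither passed over all probe sets. Between the knockouts the difference was 0.00021 (95% interval -0.55 to 0.55). Leaving out each array in turn kept the difference between 0.70 and 0.93 in E2A knockout cells and between 0.74 and 0.90 in HEB knockout cells.

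The remaining probe sets of Bcl2 differed less between genotypes. Probe set 1457687_at read 8.99 to 9.49 on E2A knockout arrays, 9.25 and 9.39 on HEB knockout arrays and 9.17 and 9.05 on WT arrays. Probe set 1422938_at read 6.07 to 7.15 on E2A knockout arrays, 6.29 and 5.87 on HEB knockout arrays and 6.30 and 6.33 on WT arrays. Over the 8 arrays 1440770_at was correlated with 1437122_at at r = -0.20 and with 1457687_at at r = -0.11. All 5 differences between E2A knockout and WT cells were positive (0.12 to 0.82). Between HEB knockout and WT cells 3 were negative and 2 positive (-1.06 to 0.82). Which stretch of the transcript each one reads was not analysed here.

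**Figure D2:**
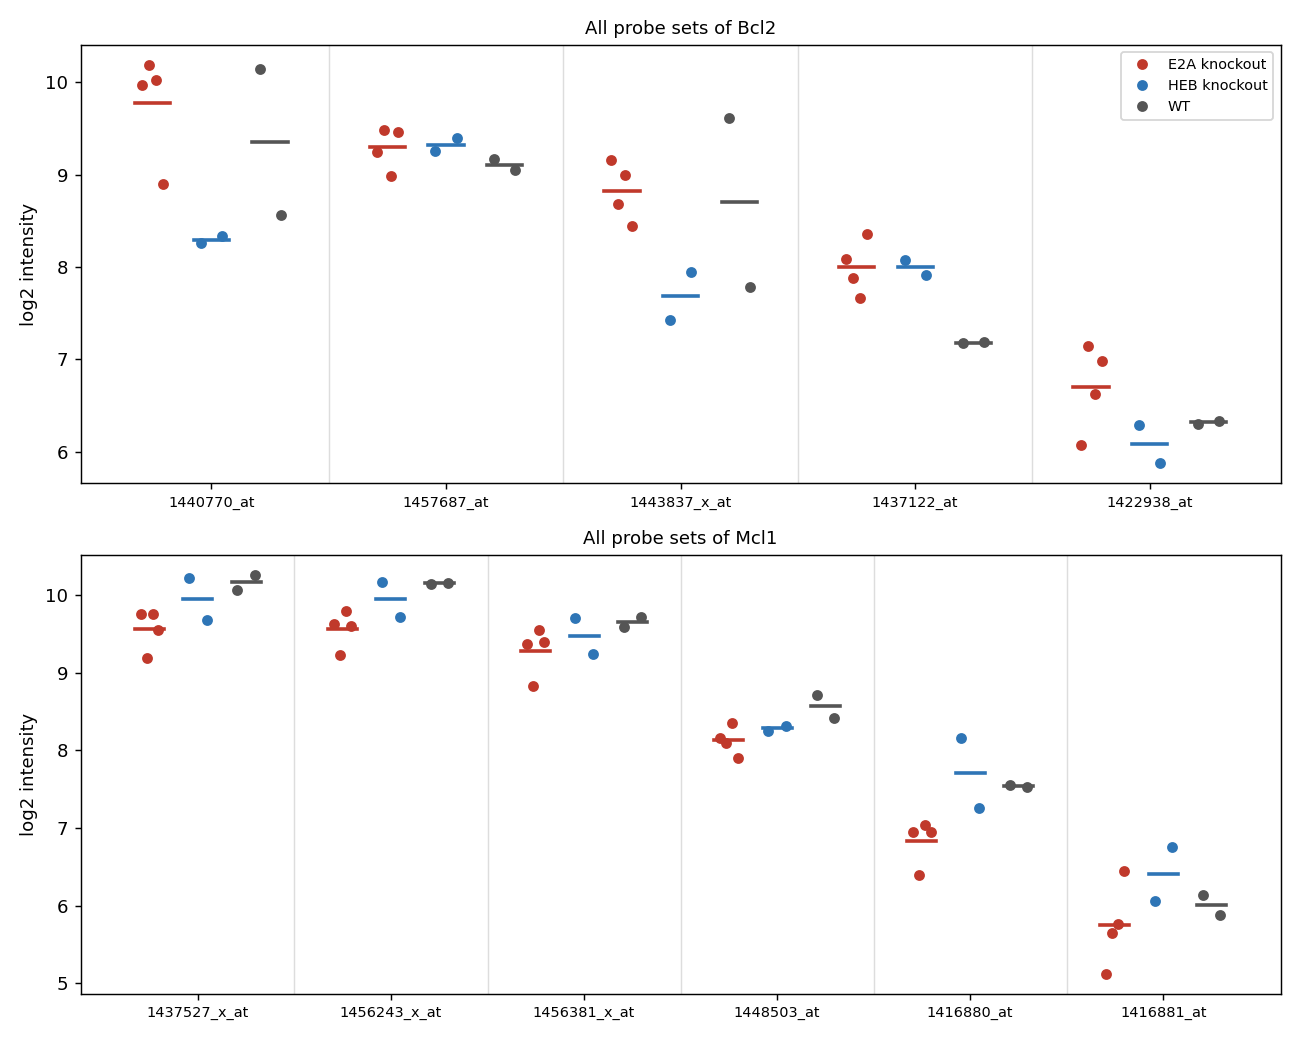
Log2 intensity of the 5 probe sets of Bcl2 and the 6 of Mcl1, ordered by mean level, with 1 point per array and a line at each genotype mean. For Mcl1 the E2A knockout arrays lie below the WT arrays in 5 of 6 probe sets. For Bcl2 the genotypes fall in different orders at 1440770_at and 1437122_at.

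The genes whose brightest probe sets ran most like 1440770_at of Bcl2 over the 8 arrays, among 11956 others, were Kdsr (r = 0.98), Ing4 (0.95), Arglu1 (0.94), Klhl17 (0.93) and Cblb (0.92). Kdsr encodes an enzyme of sphingolipid synthesis. It read 8.25, 8.32, 8.26 and 7.63 on E2A knockout arrays, 7.29 and 7.54 on HEB knockout arrays and 8.29 and 7.67 on WT arrays. In the RefSeq gene table of GRCm38.p6, Kdsr is the protein-coding gene next to Bcl2. These correlations describe 8 arrays that share their genotypes and processing.

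Bcl2l1, the gene of BCL-XL, had small differences between genotypes. It read 7.13, 6.93, 7.25 and 7.03 on E2A knockout arrays, 7.16 and 7.25 on HEB knockout arrays and 6.82 and 7.27 on WT arrays. Both knockouts lay within the range of the WT arrays. The log2 difference from WT was 0.04 in E2A knockout cells (SE 0.22, 95% interval -0.45 to 0.53, limma adjusted p = 0.9489) and 0.16 in HEB knockout cells (SE 0.25, 95% interval -0.40 to 0.73, limma adjusted p = 1). Between the knockouts it was -0.12 (95% interval -0.61 to 0.37). Of its other probe sets, 3 stayed below the array median on all arrays.

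Bak1, which encodes the effector BAK, was dim. It read 4.21, 4.14, 4.17 and 4.79 on E2A knockout arrays, 4.58 and 4.35 on HEB knockout arrays and 3.97 and 4.29 on WT arrays. E2A_KO replicate 4 was highest, and both HEB knockout arrays were above both WT arrays. Its log2 difference from WT was 0.20 in E2A knockout cells (SE 0.25, 95% interval -0.37 to 0.77) and 0.34 in HEB knockout cells (SE 0.29, 95% interval -0.32 to 0.99). The second probe set was below the median on all 8 arrays. Signals this near the array medians (3.82 to 3.95) understate differences.

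Bcl2l11, the gene of the BH3-only protein BIM, which is known to kill lymphocytes deprived of cytokine, had its widest spread inside one genotype. Its brightest probe set read 9.97, 8.59, 9.65 and 9.15 on E2A knockout arrays, 9.32 and 9.46 on HEB knockout arrays and 9.29 and 9.25 on WT arrays. The E2A knockout arrays lay on both sides of the other 4. The SD was 0.60 in E2A knockout cells, 0.10 in HEB knockout cells and 0.03 in WT cells. The log2 difference from WT was 0.07 in E2A knockout cells (SE 0.35, 95% interval -0.73 to 0.87) and 0.12 in HEB knockout cells (SE 0.41, 95% interval -0.81 to 1.05). Probe set 1435448_at was lower on all E2A knockout arrays (7.19 to 7.67) than on both HEB knockout arrays (7.86 and 7.75), with WT arrays at 7.27 and 7.71 (E2A knockout minus HEB knockout -0.45, SE 0.24, limma adjusted p = 0.3991). Of all probe sets 19.8% were apart in this direction. Probe set 1456006_at read 4.31 to 5.46 on E2A knockout arrays, 5.26 and 5.37 on HEB knockout arrays and 5.58 and 5.10 on WT arrays.

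Bad encodes a BH3-only protein that growth factor signalling is known to hold inactive by phosphorylation. It read 6.56, 6.32, 5.79 and 6.34 on E2A knockout arrays, 6.60 and 6.29 on HEB knockout arrays and 6.43 and 6.52 on WT arrays. The E2A knockout arrays ran from above both WT arrays to well below them. Its log2 difference from WT was -0.22 in E2A knockout cells (SE 0.25, 95% interval -0.80 to 0.35) and -0.03 in HEB knockout cells (SE 0.29, 95% interval -0.69 to 0.63). Its second probe set read 5.43, 4.44, 4.50 and 5.33 on E2A knockout arrays, 6.03 and 4.61 on HEB knockout arrays and 5.59 and 5.69 on WT arrays. All E2A knockout arrays were below both WT arrays there (-0.72, SE 0.44, limma adjusted p = 0.539).

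Bid, which links death receptors to mitochondria once caspase 8 has cut it, differed more within genotypes than between them. It read 6.72, 6.94, 6.26 and 6.57 on E2A knockout arrays, 7.49 and 6.11 on HEB knockout arrays and 5.78 and 6.95 on WT arrays. HEB_KO replicate 1 was highest, and WT replicate 2 (6.95) was next but nearly level with E2A_KO replicate 2 (6.94). HEB_KO replicate 1 and WT replicate 2 were also the arrays with the lowest hybridization controls and the highest B-lineage markers. At probe set 1447873_x_at the highest arrays were instead E2A_KO replicates 2, 1 and 4 (5.75, 5.20 and 5.13). The log2 difference from WT was 0.26 in E2A knockout cells (SE 0.44, 95% interval -0.73 to 1.25, and -0.33 without WT replicate 1) and 0.43 in HEB knockout cells (SE 0.50, 95% interval -0.71 to 1.58, and -0.25 without HEB_KO replicate 1). With the mean of the hybridization controls as a covariate the log2 difference of Bid was 1.36 between E2A knockout and WT cells (limma unadjusted p = 0.006581, adjusted p = 0.5405), 0.53 between HEB knockout and WT cells and 0.83 between the knockouts, where it was -0.18 without the covariate. The hybridization controls were higher on all E2A knockout arrays (11.52 to 12.62) than on both WT arrays (11.40 and 10.29). The covariate and the genotype thus cannot be fully separated in that comparison. The part of the B-lineage markers in the level of Bid was not tested. Probe set 1447873_x_at read 4.61 to 5.75 on E2A knockout arrays, 4.87 and 4.26 on HEB knockout arrays and 4.12 and 4.78 on WT arrays, with a log2 difference of 0.72 between E2A knockout and WT cells (SE 0.35, limma adjusted p = 0.4533).

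The p53 targets Bbc3 and Pmaip1 read near or below the array median. Bbc3, which encodes PUMA, read 3.77, 3.88, 4.198 and 4.08 on E2A knockout arrays, 4.11 and 3.76 on HEB knockout arrays and 3.72 and 3.88 on WT arrays. It was above the array median on 4 of 8 arrays. The log2 difference from WT was 0.18 in E2A knockout cells (SE 0.22, 95% interval -0.32 to 0.68) and 0.13 in HEB knockout cells (SE 0.26, 95% interval -0.44 to 0.71). Pmaip1, which encodes NOXA, a partner of MCL1, read 2.71, 2.49, 2.19 and 2.42 on E2A knockout arrays, 2.53 and 2.61 on HEB knockout arrays and 1.94 and 2.20 on WT arrays. These values were below the median of every array, so Pmaip1 was not tested and its order between genotypes is not read.

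**Figure D3:**
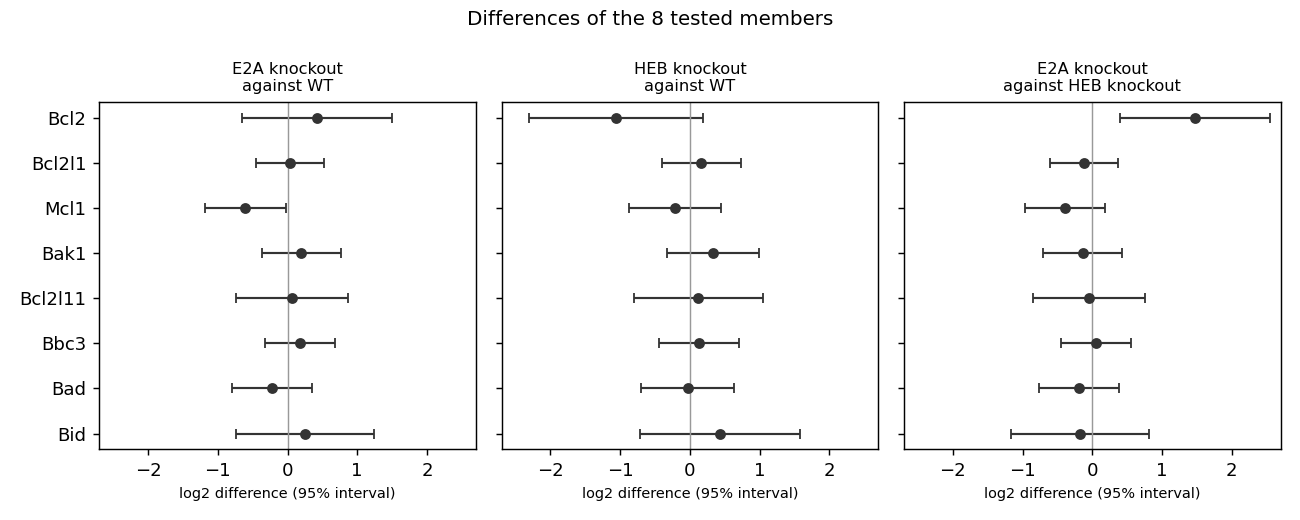
Log2 differences of the 8 tested members at their brightest probe sets in the 3 comparisons, with points at the limma estimate and bars for the 95% interval, not adjusted for the number of genes. Apart from Mcl1 in E2A knockout against WT (-0.60) and Bcl2 in E2A knockout against HEB knockout (1.48), all intervals cross 0, and none of the 8 passed over all genes.

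The intervals show how finely each gene was measured. The intervals of Bcl2l1, Bak1, Bbc3, Bad and Bcl2l11 in E2A knockout against WT cells stayed inside a log2 difference of 1 in either direction. Those of Bcl2, Bid and Mcl1 reached 1.497, 1.25 and -1.18. With 2 arrays on each side, HEB knockout against WT was less fine: the interval of Bcl2 reached -2.30 and that of Bid 1.58.

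The other genes of the pathway were read from lists of further relatives, caspases, death receptors, the p53 pathway, cytokine signalling, and turnover and tethering of the family. Of 63 genes tested in them, 2 fell in E2A knockout against WT cells, Il7r and Foxo1, both in the list of cytokine survival signalling, and 0 rose, against 0.443% of all genes called. Of the same 63, 0 passed in HEB knockout against WT (0% of all genes) and 0 in E2A knockout against HEB knockout cells (0.117%). Il7r encodes the receptor chain that brings the interleukin 7 survival signal and is also the marker CD127 of the sort. It read 8.56, 7.89, 8.73 and 9.04 on E2A knockout arrays, 10.88 and 10.50 on HEB knockout arrays and 10.51 and 10.91 on WT arrays. It fell by 2.15 in E2A knockout against WT cells (SE 0.32, limma adjusted p = 0.0330), all arrays apart, and its second probe set differed by -1.70. Foxo1, a transcription factor known to drive both Il7r and Bcl2l11 in lymphocytes, fell by 2.19 (SE 0.35, limma adjusted p = 0.0416), while its 3 other probe sets differed by -0.96 to 0.12. Both calls were lost without either WT array (adjusted p = 0.1492 for each without replicate 1, and 0.3159 for Il7r and 0.3318 for Foxo1 without replicate 2), with log2 differences of -1.92 to -2.47. They were lost as well without either HEB_KO array (adjusted p = 0.0717 and 0.0830), that of Il7r without E2A_KO replicate 1 (0.0818), and that of Foxo1 without E2A_KO replicate 2 or 4 (0.0889 and 0.0642). Beside these falls the interleukin 7 target Bcl2 and the FOXO1 target Bcl2l11 had log2 differences of 0.42 and 0.07 at their brightest probe sets. Their intervals were wide, -0.655 to 1.497 for Bcl2 and -0.73 to 0.87 for Bcl2l11. That of Bcl2 was -0.37 without WT replicate 2 and 1.21 without WT replicate 1. Over all its probe sets Bcl2 differed by 0.12 to 0.82, while the other tested probe sets of Bcl2l11 differed by -0.13 and -0.44. Whether these targets followed Il7r and Foxo1 was not tested.

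Of the caspases, their inhibitors and the apoptosome 0 of 12 passed. Birc3 and Birc2 encode the inhibitor of apoptosis proteins cIAP2 and cIAP1. Birc2 read 6.37, 6.09, 5.24 and 6.32 on E2A knockout arrays, 7.41 and 7.35 on HEB knockout arrays and 7.20 and 7.47 on WT arrays. All E2A knockout arrays were below the other 4. Its log2 difference was -1.32 against WT (SE 0.32, limma adjusted p = 0.1310) and -1.37 against HEB knockout cells (SE 0.32, adjusted p = 0.1311). Birc3 differed by -1.40 from WT (SE 0.34, adjusted p = 0.1277) at its brightest probe set and by -0.26 at the other. Apaf1, the scaffold on which cytochrome c activates caspase 9, read 6.95, 6.76, 6.51 and 7.02 on E2A knockout arrays, 8.02 and 7.37 on HEB knockout arrays and 7.63 and 7.76 on WT arrays, with a log2 difference of -0.89 from both WT and HEB knockout cells (SE 0.25 each, adjusted p = 0.1877 and 0.1800). Its second probe set was dim and differed by 0.16 and 0.13. Endog, a mitochondrial nuclease, differed by 0.64 in HEB knockout against WT cells (SE 0.48, adjusted p = 1). The median of the list was -0.20 in E2A knockout against WT cells (7 of 12 negative, all genes -0.05) and 0.16 in HEB knockout against WT cells (2 of 12 negative, all genes 0.09).

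Death receptor genes gave 0 calls of 8 in each comparison. Their median was -0.28 in E2A knockout against WT (7 of 8 negative, all genes -0.05). It was 0.35 in HEB knockout against WT (2 of 8 negative, all genes 0.09). Between E2A knockout and HEB knockout cells it was -0.59 (8 of 8 negative, where the median of all genes was -0.16). The kinase gene Dapk1 differed by -0.90 between E2A knockout and WT cells (SE 0.26, limma adjusted p = 0.1871, and 0.08 at its second probe set) and Tnfrsf1a, the TNF receptor, by -0.67 (SE 0.22, adjusted p = 0.2460). Cflar, the caspase 8 inhibitor, read 5.67, 5.26, 5.31 and 5.46 on E2A knockout arrays, 6.67 and 6.13 on HEB knockout arrays and 5.97 and 6.30 on WT arrays. Its log2 difference between E2A knockout and HEB knockout cells was -0.98 (SE 0.24, adjusted p = 0.1428), and its 4 other probe sets ran from -0.39 to 0.02 there. Casp8 itself differed by -1.04 between E2A knockout and HEB knockout cells (SE 0.37, adjusted p = 0.2272) and by 0.95 between HEB knockout and WT cells (SE 0.42, adjusted p = 1).

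**Figure D4:**
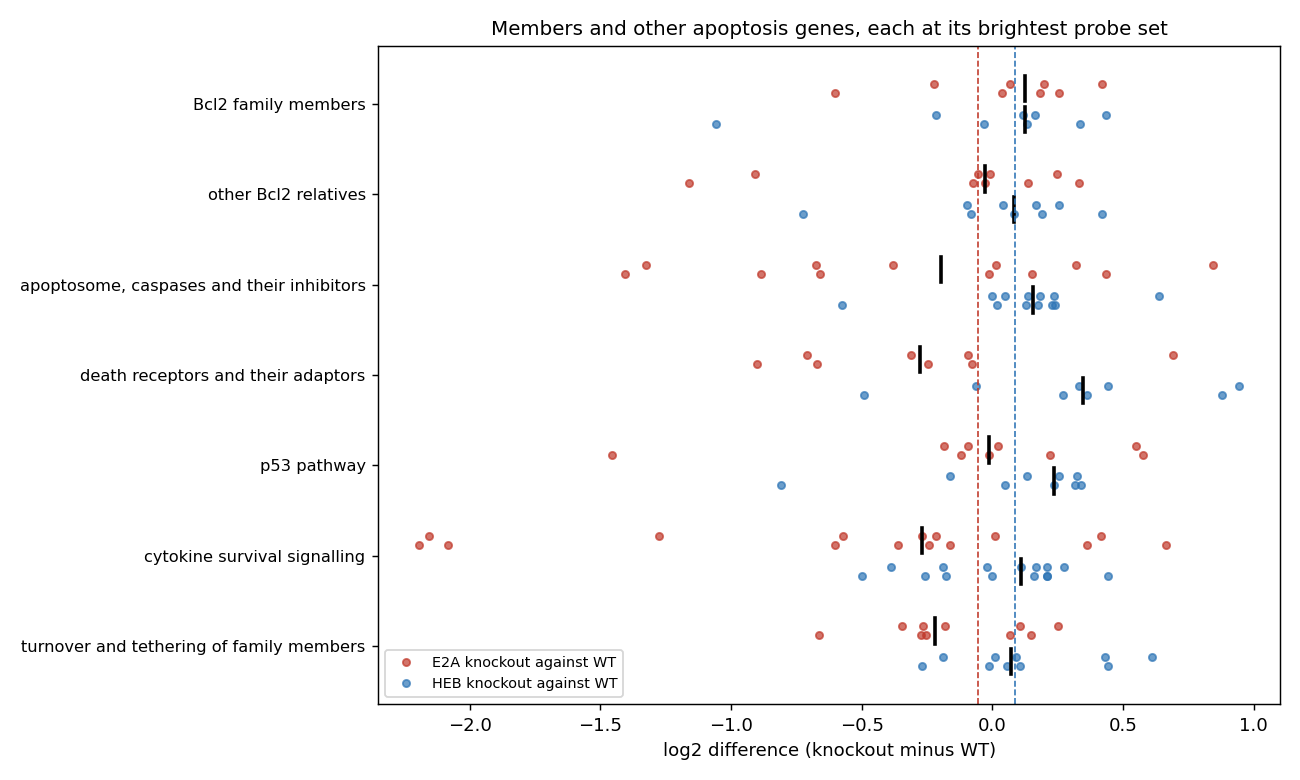
Log2 differences from WT of the 8 tested members and of 63 genes of 6 apoptosis and survival lists, each point a gene at its brightest probe set, in E2A knockout (red) and HEB knockout cells (blue). Black bars are list medians and dashed lines the medians of all genes (-0.05 and 0.09). Il7r and Foxo1, at -2.15 and -2.19 in the cytokine list, were the 2 that passed over all genes.

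Among the further relatives 0 of 9 passed. Bmf, a BH3-only gene, read 4.68, 3.47, 4.95 and 4.78 on E2A knockout arrays, 6.03 and 5.61 on HEB knockout arrays and 4.69 and 6.57 on WT arrays. WT replicate 1 lay among the E2A knockout arrays, and the log2 difference was -1.16 against WT (SE 0.55, limma adjusted p = 0.4011) and -1.35 against HEB knockout cells (SE 0.55, adjusted p = 0.2701). Its 2 other probe sets differed from WT by 0.36 and -0.20. Bcl2l13 differed from WT by -0.91 in E2A knockout (SE 0.47) and -0.72 in HEB knockout cells (SE 0.54), but by -0.09 and 0.71 at its second probe set. Bcl2l12 differed from WT by 0.42 in HEB knockout cells (SE 0.51) and by -0.03 at its second probe set, and the BH3-only gene Bik by 0.34 between E2A knockout and HEB knockout cells (SE 0.20). Of the p53 list 0 of 9 passed. Trp53inp1, a stress-induced p53 target, differed from WT by -1.46 in E2A knockout (SE 0.40, adjusted p = 0.1728) and -0.81 in HEB knockout cells (SE 0.46, adjusted p = 1), and its second probe set by -1.06 and -0.14. Sesn2 differed from WT by 0.55 and 0.32 in E2A and HEB knockout cells, and by -0.05 and -0.52 at its second probe set, and Zmat3 by -0.42 between the knockouts.

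The genes of cytokine signalling other than Il7r and Foxo1 did not pass. The list median was -0.27 in E2A knockout against WT (11 of 15 negative, all genes -0.05). It was 0.11 in HEB knockout against WT (6 of 15 negative, all genes 0.09). Between E2A knockout and HEB knockout cells it was -0.57 (11 of 15 negative, all genes -0.16). Akt2, a kinase that phosphorylates BAD, differed by 0.44 in HEB knockout against WT cells (SE 0.36), and Kit, the stem cell factor receptor, by -0.50 (SE 0.47). In E2A knockout cells Kit did not pass but lay on all arrays below both WT and both HEB knockout arrays, with log2 differences of -2.08 from WT (SE 0.41, limma adjusted p = 0.0823) and -1.58 from HEB knockout cells (SE 0.41, adjusted p = 0.1521). Its second probe set differed by -0.09 and -0.19 there. Among genes that turn over or tether the family 0 of 10 passed. Huwe1, a ubiquitin ligase of MCL1, differed by -0.35 in E2A knockout against WT cells (SE 0.25, limma adjusted p = 0.5727). Fbxw7, another such ligase, differed by -0.88 between E2A knockout and HEB knockout cells (SE 0.30, limma adjusted p = 0.2234). In HEB knockout against WT cells it differed by 0.61 (SE 0.35). At its second probe set these differences were -0.40 and 0.14. The mitochondrial channel gene Vdac1 differed by 0.25 in E2A knockout against WT (SE 0.19) and by -0.19 in HEB knockout against WT. Between the knockouts it differed by 0.44 (SE 0.19, limma adjusted p = 0.2956). Its other probe sets ran from -0.04 to 0.27, from -0.26 to 0.56 and from -0.60 to 0.32 in that order. Vdac2, of the same family, differed by 0.15 in E2A knockout against WT and by 0.44 in HEB knockout against WT cells (SE 0.25).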

How the data were processed

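RNA of 8 arrays was analysed: E2A knockout (n = 4), HEB knockout (n = 2) and WT (n = 2), grouped by the titles. The deposited values are intensity values for each probe set, which the authors made with RMA according to the submitters' processing notes; no version of RMA is given there. Per the labels' protocols RNA was amplified over more than 1 round before labelling, which favours the 3' end of transcripts. Because they run on a linear scale they were turned into log2, with no further normalization.

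Of 45101 probe sets, 64 were controls, 34945 named 1 gene, 932 several and 9160 none in the annotation used here. Probe sets naming several genes were not used. One mean for each genotype was estimated with limma 3.58.1 (R 4.3.3) on all 8 arrays, for 11957 genes and again for 20849 probe sets, with 5 residual degrees of freedom and two-sided tests. Intervals are 95% and unadjusted. The script was tested on simulated data. The number of arrays limits precision.

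Named genes were all members, Tcf3 and Tcf12, each called gene and the 2 genes of smallest p per list and comparison, and the 5 genes most like Bcl2. Flt3, Ly6d and further values beside these were chosen after seeing the data. The members and lists were chosen with earlier results of these data known. Alternatives changed the filter, normalization, probe set rule, spread estimate, arrays, block and covariate. The covariate, the mean of the hybridization controls, was higher on all E2A knockout arrays than on both WT arrays.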

Additional observations from a re-analysis of the deposited data

Results flagged for a closer look

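The E2A knockout group, with 4 arrays, was searched for an array far from the other 3 at each of the 29 probe sets, and 4 probe sets had one. About 1 in 20 such groups is expected to show this by chance. Bcl2 at 1440770_at read 8.90 on E2A_KO replicate 4 against 9.98 to 10.19 on the other 3 E2A knockout arrays. Mcl1 at 1416880_at read 6.39 on E2A_KO replicate 2 against 6.95 to 7.04 on the others, so the array farthest off was also the lowest of all 8. Bak1 read 4.79 on E2A_KO replicate 4 against 4.14 to 4.21 on the others at 1418991_at, and 3.39 against 2.83 to 2.90 at 1425716_s_at, a probe set below the array median.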

How the results depend on the processing

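No alternative gave a called member: the counts were 0 in each comparison under the other filters, normalizations, probe set rules, spread estimates, covariate, blocks and left-out arrays, and 0 when every probe set was tested. The median difference of the members moved by less than its spread between replicates (SD 0.24) but changed sign in each comparison: E2A knockout against WT ran from -0.074 without WT replicate 1 to 0.18, HEB knockout against WT from -0.11 without HEB_KO replicate 1 to 0.17, and E2A knockout against HEB knockout from -0.22 to 0.041 with cyclic loess. Mcl1 in E2A knockout against WT cells stayed negative in 21 of 21 alternatives (-0.70 to -0.34, adjusted p 0.2674 to 0.9204), and Bcl2 in E2A knockout against HEB knockout cells positive in 21 of 21 (0.64 to 1.79, adjusted p 0.1463 to 0.8864). Small differences changed sign, and the cause was not tested.

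In E2A knockout against WT cells Bcl2l1 was -0.0124 with median centring and -0.0171 with the replicate block or its crossed form, Bcl2l11 was -0.12 with the mean of probe sets, Bad 0.17 with the hybridization covariate, and Bcl2 -0.37 without both WT replicate 2 and HEB_KO replicate 1. In HEB knockout against WT cells Bad was 0.01 with median centring and 0.00135 with the covariate. In E2A knockout against HEB knockout cells cyclic loess gave 0.13 for Bcl2l1, 0.19 for Bcl2l11, -0.073 for Bbc3, 0.025 for Bad and 0.056 for Bid. Bbc3 was -0.043 with median centring and -0.11 with either block. Bid was 0.11 with the mean of probe sets (0.105), 0.031 with either block, 0.83 with the covariate and 0.51 without both arrays. With the covariate Bcl2l11 was 0.0041 and Bad 0.17 (0.165).

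Leaving out 1 array gave, in E2A knockout against WT cells, -0.19 to 0.27 for Bcl2l1, -0.14 to 0.32 for Bcl2l11, -0.33 to 0.84 for Bid and -0.37 to 1.21 for Bcl2. In HEB knockout against WT cells it gave -0.041 to 0.31 for Bbc3, -0.25 to 1.12 for Bid, -0.49 to 0.057 for Mcl1, -0.18 to 0.12 for Bad and -0.064 to 0.39 for Bcl2l1 (0.43 without both WT replicate 2 and HEB_KO replicate 1). In E2A knockout against HEB knockout cells it gave -0.26 to 0.20 for Bcl2l11, -0.13 to 0.22 for Bbc3 and -0.87 to 0.51 for Bid. Where 1 WT or HEB_KO array was left, its spread is assumed to be that of the others.

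The replicate numbers share nothing in the labels, and deviations of same-numbered WT and HEB_KO arrays were correlated at -0.28. With the replicate block 0 members were called and 12, 0 and 3 genes in all in the 3 comparisons, against 53, 0 and 14 without it, and with crossed numbers, chosen after seeing the data, 8, 0 and 0. Over all genes the count of calls in E2A knockout against WT cells ran from 0 without both WT replicate 2 and HEB_KO replicate 1 to 120 with array weights. The calls of Il7r and Foxo1 in E2A knockout against WT cells, followed after seeing the data, were also lost with every probe set tested (adjusted p = 0.0507 and 0.0636), with the compared genotypes alone (0.0717 and 0.0830), with the replicate block (0.0874 and 0.1471) and with the hybridization covariate (0.4914 and 0.5405). That of Foxo1 was lost without the filter (0.0556) and with the mean of its probe sets (-0.92, adjusted p = 0.1473).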
